A study of Caenorhabditis elegans with 2 samples.

Results

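Small nucleolar RNA (snoRNA) genes with a called region of CEH-28 are described here. CEH-28 is an NK-2 type homeobox factor that acts in M4, a motor neuron of the pharynx. A gene was chosen by the authors' peak positions, where the pooled list of chromatin immunoprecipitation sequencing (ChIP-seq) peaks on ce11 held at least 1 summit from 1000 bp upstream to 500 bp downstream of its annotated start. Of the 346 snoRNA genes of Ensembl release 115 on the 6 chromosomes, 188 met this rule (54.3%). Their counts and pooled signals are therefore a description, with no test. By its name the pooled list holds peaks and background regions together. Members that share a host or a summit are not independent of each other.

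The series holds 1 group of 2 biological replicates. Each was whole L4 larvae, both sexes pooled, of strain OP241 with the genotype unc-119(ed3) III; wgIs241, where wgIs241 is an inserted transgene that carries ceh-28 fused to eGFP. The labels give the antibody as ceh-28 and name the tagged protein as the target. A control enters the peak calls per the authors' file notes, but its data were not analysed here, nor were an untagged strain or another condition. All cells were sampled together, in a transgenic strain, so the part of M4 in any signal was not measured. Peaks were listed for each replicate (23410 summits in replicate 1 and 26414 in replicate 2) and for both pooled (20803 summits). The authors' list thresholded by the irreproducible discovery rate held 1739 of the pooled summits, called thresholded below, which are exactly the 1739 with the highest pooled signal. Peak height is the authors' signal value, which has no stated scale, and the number of reads behind it is unknown.

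SnoRNAs guide the chemical modification of other RNAs, mainly ribosomal RNA, inside small ribonucleoprotein particles. Box C/D snoRNAs direct 2'-O-methylation by fibrillarin, and box H/ACA snoRNAs direct pseudouridylation by dyskerin. They are named after short sequence boxes, with boxes C and D near the ends of the first kind and an ACA close to the end of the second. In worms many lie in introns of protein-coding genes, and an RNA released after splicing has no start of its own. Others are transcribed from their own promoters. Which intronic genes are of either kind is not known from these data. For a released RNA the annotated start is the 5' end of a processed RNA. A peak near the start of an intronic gene can lie at the start of the host gene or elsewhere in the host. It can also lie at a promoter between genes or at one of the snoRNA gene itself.

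The sequences under the peaks below differed in whether they held ATCGAT, the word found at most thresholded peaks of the whole series. Each line is the 201 bases centred on the summit, read 5' to 3' on the strand of the snoRNA gene, from the RefSeq WBcel235 assembly, which is ce11. Capitals mark ATCGAT, and CGTCTC on either strand (GAGACG when read on the other). The first pair are strong peaks within 200 bp upstream of snoRNA genes that lie in no intron.
M7.15, chrIV:11082931-11083131, plus strand: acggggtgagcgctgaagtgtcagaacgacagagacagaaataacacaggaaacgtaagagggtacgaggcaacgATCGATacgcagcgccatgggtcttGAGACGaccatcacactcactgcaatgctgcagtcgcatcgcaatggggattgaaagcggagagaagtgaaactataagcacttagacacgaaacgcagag
ZK20.9, chrII:11635062-11635262, plus strand: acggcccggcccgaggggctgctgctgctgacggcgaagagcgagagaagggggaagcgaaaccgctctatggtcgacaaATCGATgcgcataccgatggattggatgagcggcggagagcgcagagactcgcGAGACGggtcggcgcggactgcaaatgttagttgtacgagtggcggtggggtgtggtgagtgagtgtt
The next shows a strong peak at such a gene with neither word.
W06H8.17, chrV:6227404-6227604, minus strand: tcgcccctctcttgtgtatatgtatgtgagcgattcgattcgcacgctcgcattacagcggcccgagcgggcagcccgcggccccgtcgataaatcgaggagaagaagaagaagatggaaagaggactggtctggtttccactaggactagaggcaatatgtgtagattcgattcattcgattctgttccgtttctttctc
The last 4 are peaks of snoRNA genes in introns, within the gene (D1046.6), upstream of the host gene rps-29 (B0412.6) and farther into the host (F01D5.12 and Y51A2D.40).
D1046.6, chrIV:8927218-8927418, plus strand: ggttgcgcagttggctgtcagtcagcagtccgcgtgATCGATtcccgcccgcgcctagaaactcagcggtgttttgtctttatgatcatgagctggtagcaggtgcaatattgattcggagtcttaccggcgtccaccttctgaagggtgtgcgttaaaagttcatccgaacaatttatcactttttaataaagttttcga
B0412.6, chrIII:794075-794275, plus strand: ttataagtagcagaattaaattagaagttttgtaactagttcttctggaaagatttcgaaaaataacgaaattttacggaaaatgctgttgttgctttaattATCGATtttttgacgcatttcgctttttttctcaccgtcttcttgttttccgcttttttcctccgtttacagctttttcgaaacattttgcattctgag
F01D5.12, chrII:14018998-14019198, minus strand: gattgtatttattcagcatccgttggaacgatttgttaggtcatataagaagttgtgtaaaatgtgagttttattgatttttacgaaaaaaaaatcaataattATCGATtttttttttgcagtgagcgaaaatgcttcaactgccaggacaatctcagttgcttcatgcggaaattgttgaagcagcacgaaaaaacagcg
Y51A2D.40, chrV:18605620-18605820, plus strand: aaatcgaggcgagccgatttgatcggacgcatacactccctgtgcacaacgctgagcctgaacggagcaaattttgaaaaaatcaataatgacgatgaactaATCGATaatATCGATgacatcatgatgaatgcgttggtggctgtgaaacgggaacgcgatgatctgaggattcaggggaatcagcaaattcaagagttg
In the D1046.6 window ATCGAT starts at base 37 and ends 5 bases before the first base of the snoRNA, which is base 48. In the ZK20.9 window the snoRNA starts at base 164, so the summit stands just before it. The 2 ATCGAT sites of Y51A2D.40 lie 3 bases apart.

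SnoRNA genes held a pooled summit more often than the 5 other gene classes counted, which were protein-coding, tRNA, microRNA, snRNA and other non-coding RNA genes. The share was 54.3% of 346 snoRNA genes, against 43.1% of 612 tRNA genes, 34.6% of 7764 other non-coding RNA genes, 34.1% of 19973 protein-coding genes, 33.3% of 261 microRNA genes, 31% of 129 snRNA genes and 27.7% of all 46544 genes that are not snoRNA genes. For thresholded summits the shares were 8.38% of snoRNA genes (29 genes), 5.75% of microRNA genes, 5.43% of snRNA genes, 3.85% of protein-coding genes, 3.43% of other non-coding RNA genes, 2.61% of tRNA genes and 2.55% of all other genes. The same rule was used for each class, and no test was run, since the rule chose the members on this list. Gene density and chromosome were not matched between classes.

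**Figure D1:**
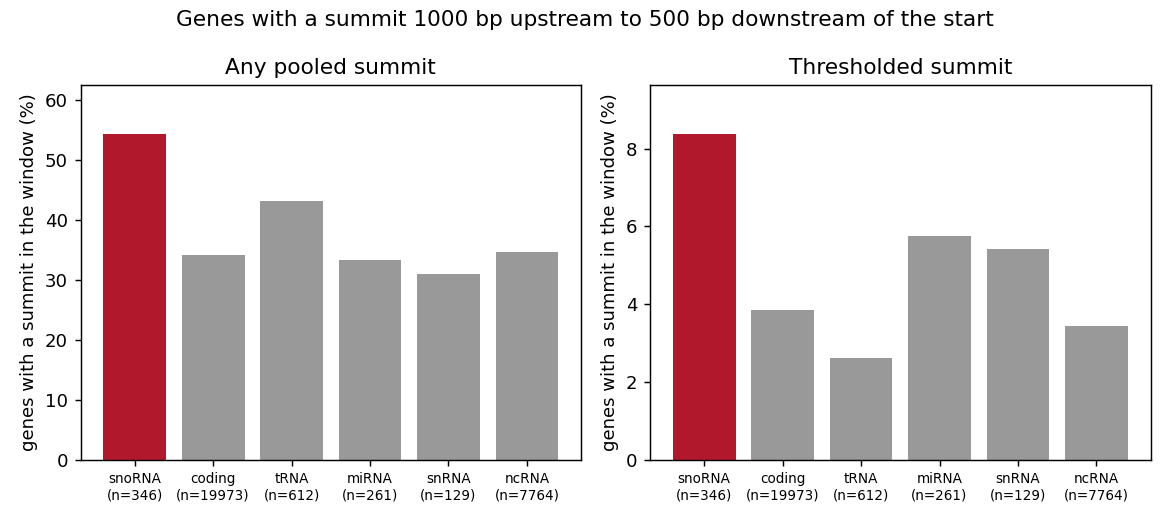
Percent of genes (y axis) of 6 classes (x axis, with the number of genes) whose window held any pooled summit (left) or a thresholded summit (right). SnoRNA genes, in red, stand at 54.3% and 8.38%, above the other 5 classes, of which protein-coding genes stand at 34.1% and 3.85%.

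The 188 genes were spread over all 6 chromosomes, with 47 of 74 snoRNA genes on I, 38 of 71 on II, 29 of 54 on III, 23 of 59 on IV, 38 of 55 on V and 13 of 33 on X. The share was highest on V (69.1%) and I (63.5%) and lowest on IV (39.0%) and X (39.4%). The share of all genes on each chromosome was not computed, so this order may not be particular to snoRNA genes. Thresholded summits did not follow that order, with 7 of the 54 genes on III and 4 of the 55 on V. Most members, 136, had 1 pooled summit in the window, and 3 had 4. Their highest summits were 178 distinct positions, because 20 genes shared theirs with a neighbour. The 29 genes with a thresholded summit had 26 distinct summits in 26 regions.

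Signals at most members were low. The median pooled signal of the highest summit was 22.8 (range 12.7 to 248), beside 22.2 at the 6806 protein-coding genes with a pooled summit and 18.9 over the whole pooled list. The median at the 29 thresholded members was 87.1, beside 89.8 over all 1739 thresholded summits. The highest value, 248 at M7.15, was far below the 2314 of the highest peak in the genome. Each thresholded member had a region in both replicates, as did 1733 of all 1739 thresholded summits. Nearly all of that list had one, so this was no trait of the members. A region in both replicates need not rank high in both. That of Y43F8C.22 ranked 741 in replicate 1 and 12024 in replicate 2. Of the 159 other members 95 had a region in both (59.7%), and that share was not computed over the other pooled summits. Of these 159, 39 overlapped a region of replicate 1 and none of replicate 2, and 25 a region of replicate 2 and none of replicate 1. Among the 1739 highest summits of each replicate, regions of 26 of the 29 thresholded members ranked in replicate 1 and of 20 in replicate 2.

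By host, 102 of the 188 genes (54.3%) lay inside an intron of a protein-coding gene, and 86 did not. All snoRNA genes had nearly the same split, with 178 of 346 in introns (51.4%). Of intronic snoRNA genes 57.3% were members, and of the rest 51.2%. The host was on the same strand for 89 of the 102 genes and on the opposite strand for 13. The 102 genes lay in 90 hosts, of which 80 held 1 member, and none held more than 3. Of the 86 genes outside introns, 64 overlapped no protein-coding gene and 22 overlapped a protein-coding exon.

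The highest summit lay at the host's own start for 38 of the 102 intronic genes, by the same window of 1000 bp upstream to 500 bp downstream of the host gene's start. Of these 38 genes 14 had a thresholded summit (36.8%), against 5 of the 64 intronic genes with the summit away from the host's start (7.81%) and 10 of the 86 genes outside introns (11.6%). Among all 188 members that share was 15.4% (29 genes), and among all 346 snoRNA genes it was 8.38%. Counted by distinct summits, the thresholded ones were 11 of 31 at the host's start, 5 of 63 elsewhere in introns and 10 of 85 outside introns. The 38 genes' median pooled signal was 36.3 (range 13.5 to 176), against 21.8 (12.7 to 226) for the 64 genes and 20.8 (12.7 to 248) for the 86. Intronic members sat closer to their host's start than intronic snoRNA genes without a called region, at a median of 1201 bp against 3226 bp. Within 1000 bp of the host's start 44 of 61 snoRNA genes were members (72.1%), and beyond it 58 of 117 (49.6%).

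Hosts of snoRNA genes often had a called region at their start. Of the 157 genes that hold a snoRNA gene in an intron, 91 had a pooled summit in the window at their own start and 21 (13.4%) a thresholded one. Among all 19973 protein-coding genes the counts were 6806 and 768 (34.1% and 3.85%). The hosts are a part of those genes, and their expression and intron length were not matched.

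All 14 genes with a thresholded summit at the host's start had it upstream of the host's start, between 478 and 26 bp before it. The snoRNA gene lay downstream of that start, as any gene in an intron must. The rpl-15 gene, which encodes a protein of the large ribosomal subunit, held K11H12.12 and K11H12.13 in separate introns (chromosome IV, 653902 to 654030 and 654229 to 654361). They shared a summit 366 bp upstream of rpl-15 with a pooled signal of 176, from 98.9 in replicate 1 and 78.9 in replicate 2. This was the highest signal of the group and had no ATCGAT within 100 bp. Each was an H/ACA snoRNA by its end, and their starts lay 912 and 581 bp from the summit.

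The small-subunit genes rps-12 and rps-29 also held 2 snoRNA genes each. F54E7.10 and F54E7.11 in rps-12 (chromosome III, 5679378 to 5679509 and 5679745 to 5679875) shared a summit 215 bp upstream of the host. Its signal was 68.6 in the pooled list, 58.9 in replicate 1 and 8.06 in replicate 2. That summit lay closer to the start of ska-3, at 78 bp. B0412.6 and B0412.7 in rps-29 (III, 794399 to 794526 and 794742 to 794867) shared a summit 125 bp upstream of the host, at 62.7 in the pooled list, 45.5 in replicate 1 and 17.5 in replicate 2. C16A3.11 (III, 6374415 to 6374548) lay in rps-13, with the summit 222 bp upstream of the host at 61.2, 39.1 and 18.6 in the same lists, and 160 bp from the start of nfx-1.

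The 3 pairs that share both a host and a thresholded summit are shown so that their likeness can be seen. Lines give the snoRNA 5' to 3' on its own strand, with the ACA that stands 3 bases before the end in capitals.
K11H12.12, chrIV:653902-654030, minus strand: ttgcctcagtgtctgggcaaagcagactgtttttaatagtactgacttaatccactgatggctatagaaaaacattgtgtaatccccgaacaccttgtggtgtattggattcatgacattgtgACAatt
K11H12.13, chrIV:654229-654361, minus strand: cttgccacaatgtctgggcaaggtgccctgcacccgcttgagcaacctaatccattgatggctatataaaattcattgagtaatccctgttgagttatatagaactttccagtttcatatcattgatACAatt
F54E7.10, chrIII:5679378-5679509, plus strand: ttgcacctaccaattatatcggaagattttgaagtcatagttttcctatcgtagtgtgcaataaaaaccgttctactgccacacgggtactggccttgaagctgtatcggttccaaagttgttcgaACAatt
F54E7.11, chrIII:5679745-5679875, plus strand: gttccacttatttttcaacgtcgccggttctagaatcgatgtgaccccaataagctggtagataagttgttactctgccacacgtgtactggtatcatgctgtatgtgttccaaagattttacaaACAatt
B0412.6, chrIII:794399-794526, plus strand: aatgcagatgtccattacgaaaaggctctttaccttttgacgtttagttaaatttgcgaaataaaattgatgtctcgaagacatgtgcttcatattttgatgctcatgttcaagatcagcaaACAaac
B0412.7, chrIII:794742-794867, plus strand: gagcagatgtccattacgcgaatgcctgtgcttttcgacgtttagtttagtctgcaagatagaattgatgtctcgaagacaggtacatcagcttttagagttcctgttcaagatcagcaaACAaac
In a global alignment, B0412.6 and B0412.7 were identical at 80.6% of 129 aligned positions, K11H12.12 and K11H12.13 at 64.9% of 134, and F54E7.10 and F54E7.11 at 62.8% of 137. Over all 1225 pairs of H/ACA members the median was 50.4% and the 95th percentile 55.6%. The starts of the genes of a pair lay 327 to 367 bp apart, and the shared summits lay outside the snoRNA genes.

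Of the other thresholded genes with the summit at the host's start, C06A1.9 in cdc-48.1 had the highest signal. The host encodes an AAA ATPase of protein turnover, and the summit lay 161 bp upstream of it (131 in the pooled list, 84.3 in replicate 1 and 49.5 in replicate 2). F54C9.12 in iff-2, which encodes the translation factor eIF5A, had a summit 41 bp upstream (78.9, 48.6 and 35.1). E01A2.9 in akir-1, the akirin gene, had 88.0, 79.3 and 23.1 at 416 bp upstream, nearer to the start of E01A2.1 at 143 bp. Y37E3.21 (signals of 69.7, 36.6 and 31.97) lay in Y37E3.8, which RefSeq names rpl-27A, a protein of the large ribosomal subunit, and its summit was 478 bp upstream of the host and 267 bp from the prohibitin gene phb-1. B0393.10 lay in the F-box gene fbxl-2 (58.9, 43.7 and 15.01).

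In this group Y43F8C.22, R08C7.19 and the pair in rps-12 described above were high in replicate 1 and low in replicate 2. Y43F8C.22, in an intron of Y43F8C.7 (a subunit of the ER membrane protein complex per RefSeq), had signals of 79.9 in the pooled list, 76.0 in replicate 1 and 7.28 in replicate 2. R08C7.19, on the strand opposite to its host chat-1, had 90.9, 83.4 and 8.81. The median over all summits was 13.1 in the list of replicate 1 and 6.96 in that of replicate 2. The ratios of replicate 1 to replicate 2 were 10.4 at Y43F8C.22, 9.46 at R08C7.19 and 7.30 at rps-12. Over the 1733 thresholded summits with a region in both replicates the median ratio was 2.76 and the 90th percentile 4.68. Of those summits 0.404%, 0.577% and 1.85% had a higher ratio than these 3. At the other end Y37E3.21 had 1.14 and rpl-15 1.25. Over the 26 distinct thresholded summits of snoRNA genes the median ratio was 2.60.

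**Figure D2:**
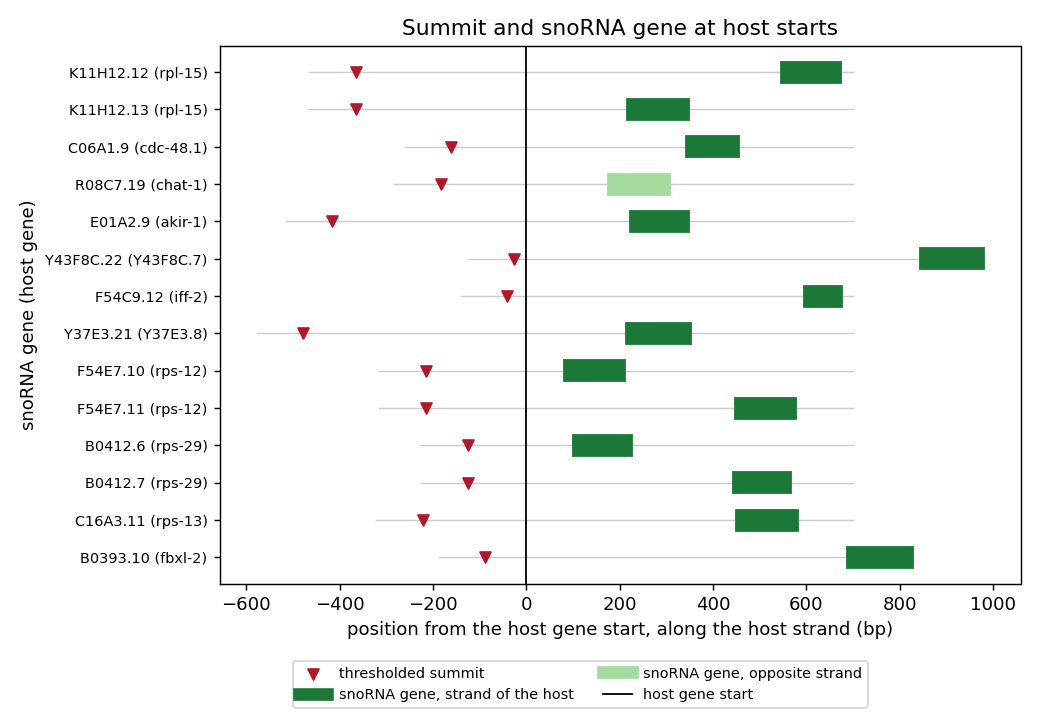
Position of the thresholded summit (red triangle) and of the snoRNA gene (green box, pale on the strand opposite to the host) from the host gene's start (x axis, bp along the host strand) for the 14 intronic genes with the summit at the host's start. The summits of all 14 lie 26 to 478 bp upstream of the host's start. The snoRNA genes lie downstream of it, as genes in introns must.

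By Ensembl symbols that begin with rpl, rps or rla, starts of ribosomal protein genes carried the summit of 7 of the 29 thresholded members (24.1%) and of 17 of all 188 members (9.04%). The 7 genes are not independent, since rpl-15, rps-12 and rps-29 each held 2 that shared a summit. The share over all thresholded summits was not computed. These symbols leave out ribosomal protein genes with other symbols, among them the host Y37E3.8, which RefSeq names rpl-27A. With it they leave out the thresholded member Y37E3.21 and the snoRNA gene Y37E3.22, which is no member. The annotation places 19 snoRNA genes in introns of 13 ribosomal protein genes by these symbols, and 17 of the 19 were members. All 19 started within 1000 bp of the host's start. Among all intronic snoRNA genes that near to a host's start, 44 of 61 were members (72.1%). Of the 13 ribosomal protein hosts, 12 had a pooled summit at their start and 4 a thresholded one. Among the 68 ribosomal protein genes that hold no snoRNA gene, these counts were 54 and 11. The hosts thus stood at 92.3% and 30.8%, against 79.4% and 16.2%, with no test. Among hosts without a thresholded call, rpl-6 held R151.11 and R151.12, which shared a summit at 34.6 in the pooled list that was higher in replicate 2 (21.6) than in replicate 1 (12.3). D1007.20 in rpl-24.1 was the closest to a call, with a pooled signal of 53.8 at rank 1868, where the lowest thresholded signal was 56.5. Its summit lay 784 bp upstream of the host, in the start window of rps-10. Outside ribosomal protein genes, Y49E10.36 in his-72, a histone H3.3 gene, had 50.4 in the pooled list, 37.4 in replicate 1 and 15.8 in replicate 2, at 169 bp upstream of the host. F28C6.11 in rpl-26 and Y43B11AR.7 in rps-4 were the 2 of the 19 without a summit in the window.

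Intronic genes with the summit away from the host's start had 5 thresholded calls. F01D5.12 (chromosome II, 14018354 to 14018441) had a pooled signal of 226, from 165 in replicate 1 and 59.9 in replicate 2, at a summit 657 bp upstream of the snoRNA gene and 2232 bp downstream of the start of its host F01D5.10, a carbohydrate sulfotransferase gene per RefSeq. Y51A2D.40 in grdn-1 had 137, 101 and 33.4 in the same lists, with the summit 12972 bp into the host. C04A2.16 in egl-27 (118, 91.2 and 24.7) and T27C4.7 in lin-40 (57.8, 38.2 and 19.1) lay in genes for MTA-like proteins of the NuRD chromatin complex. Their summits were 7862 and 3400 bp into the hosts. In these 4 the summits lay 370 to 885 bp upstream of the snoRNA gene, and only that of C04A2.16 was in the same intron.

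D1046.6 differed from those 4 because its summit lay within the snoRNA gene itself. The gene (chromosome IV, 8927265 to 8927393) is an H/ACA snoRNA by its end and sits in an intron of cfim-2 from 8927098 to 8927455. The summit was 53 bp inside the snoRNA gene and 994 bp downstream of the host's start, with signals of 79.6 in the pooled list, 62.7 in replicate 1 and 14.4 in replicate 2. All 5 thresholded summits away from the host's start held ATCGAT within 100 bp. Away here refers to the start of the host gene as annotated. The summits of C04A2.16 and D1046.6 lay in the same window around the start of another annotated transcript of the host, egl-27 and cfim-2.

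Most regions of intronic genes with the summit away from the host's start were weak, and many lay close to the snoRNA gene. Of all 64, 32 had the highest summit within 200 bp of the snoRNA start, and 40 had it in the same intron. The signals of the 32 ranged from 12.7 to 79.6 with a median of 21.9, D1046.6 was the single thresholded gene (3.12%), and 23 had a region in both replicates. The highest of them without a call was F07A11.15 in din-1 (55.0 in the pooled list, 42.3 in replicate 1 and 30.5 in replicate 2), 189 bp downstream of its start and in the window around the start of another transcript of din-1. C14C10.8 in ril-2 had 51.2, 39.6 and 8.21, at a summit 9 bp upstream of the snoRNA gene. This summit also lay in the start window of mma-1.

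**Figure D3:**
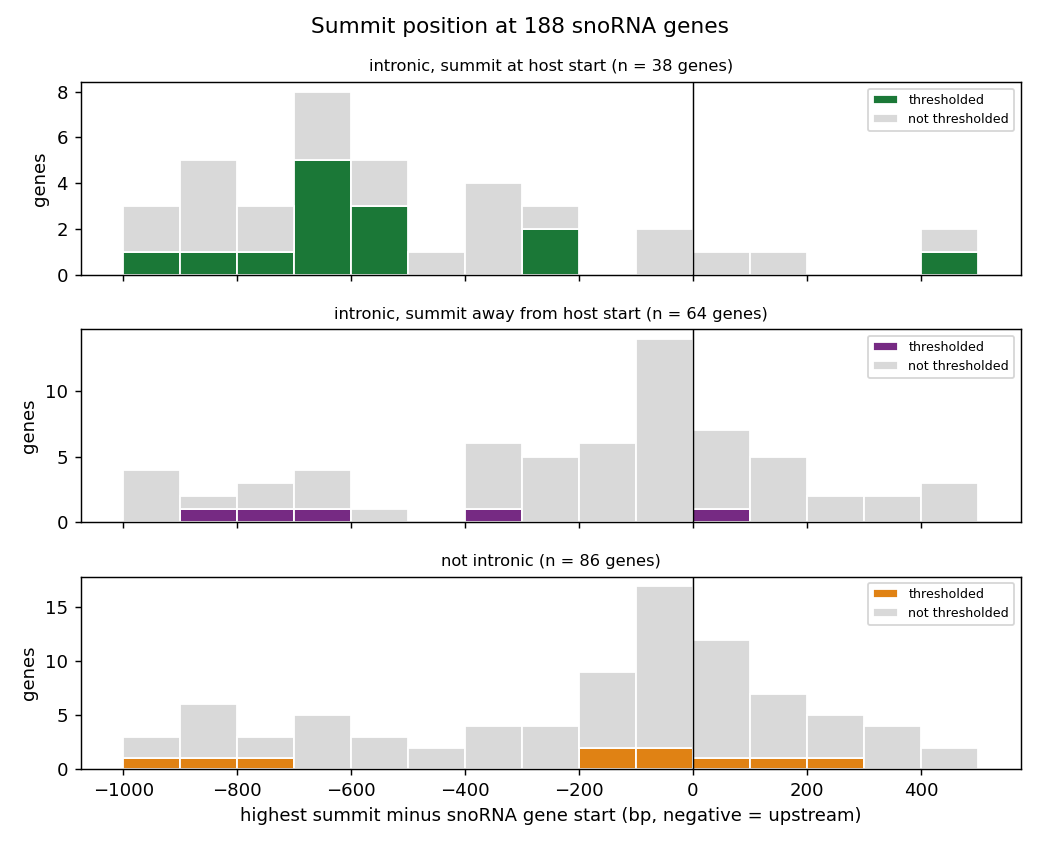
Number of snoRNA genes (y axis) by the position of their highest pooled summit from the snoRNA gene's start (x axis, bp, 100 bp bins), for the 3 host groups, with thresholded summits in colour. Summits at the host's start lie mostly over 500 bp upstream of the snoRNA gene (24 of 38), and those of the other 2 groups gather around its start.

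The highest peak of any member was at a snoRNA gene outside introns, and such genes' thresholded peaks often stood close to the gene. Of the 10 with a thresholded summit, 6 had it within 200 bp of the start. M7.15 (chromosome IV, 11083147 to 11083243) had a pooled signal of 248 at rank 188, from 197 in replicate 1 and 53.4 in replicate 2, 116 bp upstream of its start. The same summit lay in the start windows of 2 protein-coding genes, of which klc-1, a kinesin light chain gene, was nearer at 704 bp. C26C6.13 on I (178, 117 and 61.1) had its summit 173 bp upstream, and ZK20.9 on II (167, 120 and 47.5) 63 bp upstream, each with no protein-coding start in range. W06H8.17 on V (151, 127 and 35.8) had its summit 46 bp inside the gene, and 494 bp from the start of W06H8.6. The summit of F59C6.15 on I lay 44 bp upstream of it (65.6, 44.1 and 18.3), and also in the start window of F59C6.18 at 766 bp. That of F58D5.12 on I lay 138 bp downstream (75.7, 55.3 and 21.3), where the gene overlaps a protein-coding exon.

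The other 4 had the summit farther from the snoRNA gene. T27A8.8, the 1 thresholded member on X, had 199 in the pooled list, 159 in replicate 1 and 43.3 in replicate 2 at 789 bp upstream, with neither word at the summit. ZK484.11 (99.9, 80.8 and 35.6) and C15F1.15 (87.1, 55.9 and 27.8) had theirs 949 and 895 bp upstream. The summit of ZK484.11 lay 352 bp from the start of ZK484.6. F37A8.7, the lowest of all 29 at rank 1701, had 57.4, 42.9 and 17.2 at 266 bp downstream. In all, the summit of 4 of the 10 lay in the start window of a protein-coding gene, as did that of 33 of all 86 genes outside introns. Over the whole lists, 660 of the 1739 thresholded summits and 6561 of the 19064 other pooled summits lay in such a window, which is a similar part.

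Over all 86 genes outside introns, summits were most frequent near the start. Of them, 26 had the highest summit 200 to 1 bp upstream of the start (30.2%) and 19 from the start to 200 bp downstream (22.1%). At protein-coding genes those shares were 22.3% and 13.6%. At intronic snoRNA genes with the summit away from the host's start they were 31.2% and 18.8%, so this closeness was not particular to genes outside introns. At intronic snoRNA genes with the summit at the host's start they were 5.26% each. The 45 genes of both bins had a median signal of 21.2 and 29 had a region in both replicates. At 19 of the 45 the summit also lay in the start window of a protein-coding gene, so it cannot be assigned to the snoRNA gene alone. Y74C9A.6, which has both boxes C and D, was the highest outside introns without a call (51.2 in the pooled list, 37.0 in replicate 1 and 13.1 in replicate 2), 286 bp upstream of its start.

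**Figure D4:**
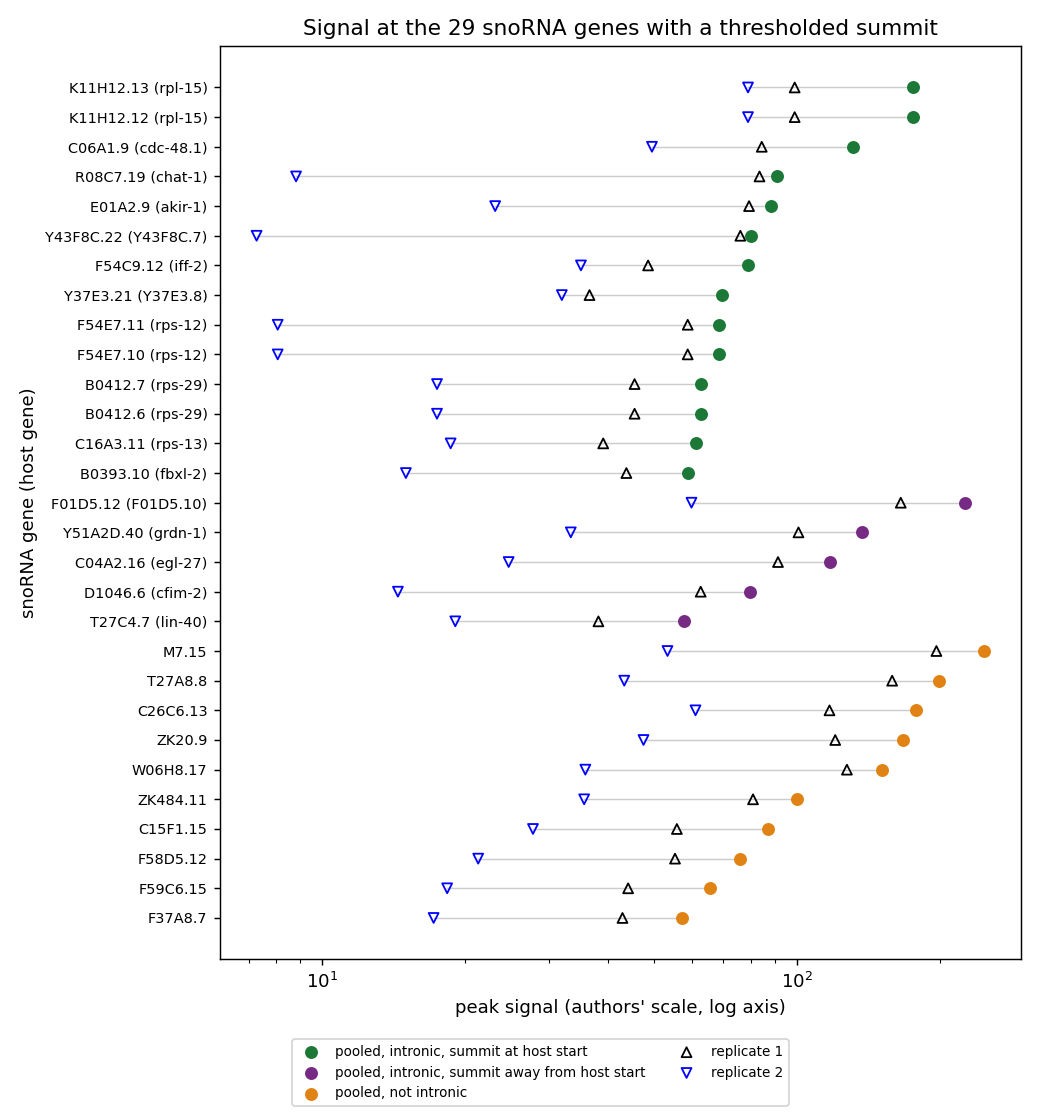
Peak signal (x axis, authors' scale, log axis) at the 29 snoRNA genes with a thresholded summit (y axis, host gene in brackets) in the pooled list (filled points, coloured by host group), replicate 1 and replicate 2 (open triangles). Replicate 1 lies above replicate 2 at all 29 genes, by the least at Y37E3.21 and by the most at Y43F8C.22. This is not particular to these genes, as scales differ between lists. Over 1733 thresholded summits the ratio of replicate 1 to replicate 2 had a median of 2.76 and a 10th percentile of 1.77.

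By their boxes, H/ACA genes made up 26.6% of the members and 21.7% of all snoRNA genes. An ACA 2 to 4 bases before the end marked 75 of all 346 snoRNA genes and 5.72% of 7764 other non-coding RNA genes. Of these 75 genes, 50 were members (66.7%), against 49.4% of the 257 genes with neither set of boxes. They made up 15 of the 29 thresholded members, and 25 of the 38 with the summit at the host's start (65.8%), against 16 of 64 with it elsewhere in an intron and 9 of 86 outside introns. The 15 include both genes of each pair that shares a host and a thresholded summit. H/ACA genes were mostly intronic (58 of 75) and close to the host's start, with 30 of the 58 within 1000 bp of it, against 28 of the 112 intronic genes with neither set. The part of that closeness in the counts of members was not tested.

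Box C/D genes could be recognised less often. TGATGA within the first 20 bases together with CTGA within the last 20 marked 14 of 346 snoRNA genes, of which 11 were members and 0 had a thresholded summit. With 1 mismatch allowed in TGATGA, a rule added after the data were seen, there were 43, of which 26 were members (60.5%) and 3 had a thresholded summit. This looser pair of boxes marked 0.477% of the other non-coding RNA genes. F54C9.12 in iff-2 is among these 3 and is shown with the matches to both boxes in capitals.
F54C9.12, chrII:8560691-8560772, minus strand: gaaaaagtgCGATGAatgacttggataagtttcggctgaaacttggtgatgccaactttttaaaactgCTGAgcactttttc
The median pooled signal was 27.7 at H/ACA members, 22.3 at box C/D members and 21.8 at members with neither set. The last kind made up 127 of the 188, and 72 of those lay outside introns.

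ATCGAT was less common at the peaks of snoRNA genes than over the whole lists. It lay within 100 bp of 15 of the 26 distinct thresholded summits (57.7%), against 76.1% of all 1739 thresholded summits and 68.8% of the 660 in start windows of protein-coding genes. In windows 1000 bp to either side of the 26 it lay in 2 each (7.69%), against 17.2% and 17.7% beside all thresholded summits. At the 152 other summits of members it lay in 13.8%, against 26.1% of all 19064 pooled summits outside the thresholded list. The windows to either side of those 152 had it in 6.58% and 4.61%, against 7.96% and 7.94% beside those 19064. No test was run, since summits lie close together and were chosen for nearness to a snoRNA gene. By host group, the word lay at 5 of 11 thresholded summits at the host's start, 5 of 5 elsewhere in introns and 5 of 10 outside introns. Of all 178 summits 142 had no site, 33 had 1 and 3 had 2, so arrays of the word were not seen here.

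CGTCTC, a second word found in excess at the peaks of the series, went the other way. It lay at 8 of the 26 thresholded summits (30.8%), against 16.6% of all thresholded summits and 20.5% of those in start windows of protein-coding genes, and in 1 and 2 of the windows to the sides. C26C6.13, M7.15, ZK20.9, C04A2.16 and C15F1.15 had both words, and ZK484.11, F54C9.12 and F59C6.15 had CGTCTC alone. AGAGAG lay at 4 of the 26, against 363 of all 1739 thresholded summits, and in 4 and 5 of the windows to the sides. All 3 words were picked for their excess at thresholded peaks of these same data.

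Genes for the proteins that work with snoRNAs had called regions at their own starts. Of 13 matched genes in a list of snoRNP and nucleolar proteins, 12 had a pooled summit in the window and 4 a thresholded one, beside 34.1% and 3.85% of all protein-coding genes. Expression was not matched. High shares were not particular to this list, as ribosomal protein genes that hold no snoRNA gene had 79.4% and 16.2%. The fibrillarin gene fib-1 was highest, at 131 in the pooled list, 79.9 in replicate 1 and 57.8 in replicate 2, in a region on chromosome V from 15002229 to 15002432 with the summit 115 bp upstream of the gene. The dyskerin gene dkc-1 had 84.7, 62.9 and 23.2, at 178 bp upstream. dao-5, which encodes a nucleolar protein, had 67.0, 53.0 and 13.4, and nucl-1, the nucleolin homolog, had 57.8, 44.9 and 14.5. All 4 summits held ATCGAT. Those of fib-1, dkc-1 and nucl-1 lay in start windows of a neighbour too, mut-15, ran-1 and daf-31.

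Below the threshold, the H/ACA particle genes garr-1, Y48A6B.3 and nola-3 had pooled signals of 47.3, 39.1 and 26.4. The helicase genes ruvb-1 and ruvb-2, known for a role in assembling such particles, had 36.2 and 27.3, and snpc-4, a subunit of the snRNA-activating complex, had 33.3. The box C/D core genes nol-56 and nol-58 had 19.3 and 16.7, beside a median of 18.9 over the pooled list, and snu-13 had no summit in the window. nol-56 itself holds 3 of the member snoRNA genes. K07C5.11 shared the weak region at its start, and K07C5.10 and K07C5.12 a weaker one at 12.99, with a region of replicate 1 and none of replicate 2.

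At the edges of the window, the members just inside were C27H5.9 with its only summit 497 bp downstream (signal 37.4) and F17C11.14 with its only summit 982 bp upstream (13.3). Just outside were Y43B11AR.7, with its nearest summit 1001 bp upstream (42.2), and F21F12.3 at 519 bp downstream (14.2).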

How the data were processed

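The authors deposited, for each replicate and for both pooled, lists of peaks and background on ce11, and an optimal list past an irreproducible discovery rate threshold, derived per the labels' file notes from those lists. Each deposited entry has a region, a summit offset, a signal value and a −log10 q value, which reached the same maximum at every thresholded summit and was not used. The aligner was, like the peak caller, not given in the sources used here, and the p-value column is unset. The lists carry no read counts, so the depth is unknown and no interval from counting reads is given. The ce10 lists were not used here.

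Positions were turned to 1-based coordinates and joined to Ensembl release 115 genes on WBcel235, the same assembly as ce11. Summits were assigned by windows of 1000 bp upstream to 500 bp downstream of gene starts. A host is a protein-coding gene with an intron, in at least 1 transcript, that holds the whole snoRNA gene, on either strand. The signal of a replicate is the highest of its regions that overlap the pooled region by at least 1 bp. Words were sought on both strands within 100 bp of the summit. Alignments scored 1 for a match, -1 for a mismatch, -2 to open a gap and -1 to extend it. No test was run: the pooled list chose the members, and the series has 1 group of 2 replicates. The window assignment was checked on made-up positions.

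The members, the lists and the words were chosen with earlier results of these data known. Genes named are all members with a thresholded summit, the 5 highest others, those next to the window edges, members of ribosomal protein hosts and of nol-56 (the last 2 sets named after their values were seen), and the snoRNP list, of which nol-1 was not matched. Python 3.11.15, numpy 2.4.6, pandas 2.3.3, Biopython 1.88 and matplotlib 3.10.9 were used.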

Additional observations from a re-analysis of the deposited data

How the results depend on the processing

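Across 34 alternatives, 24 values lay close to the reported one, which for counts meant within 1.5 times. Narrower windows lowered the counts: 250 bp either side left 108 snoRNA genes with a pooled summit (188 in the main window) and 8 with a thresholded one (29), and 500 bp either side left 13 with a thresholded one. Both windows lie inside the main one, so these counts could not rise. Thresholded summits at or above the median signal of their list left 13 genes. Counting only members with a thresholded summit left 19 in introns, by construction. From the list of a single replicate, genes with a summit ranged from 189 to 193, and of the 188, 171 were found again with replicate 1 and 157 with replicate 2. Genes with a thresholded summit ranged from 27 to 32 when the highest summits of 1 replicate stood for the thresholded list, and 17 of the 29 were found in both. Intronic members ranged from 100 to 104 and those with the summit at the host's start from 35 to 36 (38 with both), and 51 had it at the start of some annotated transcript of the host. The share of members' summits with ATCGAT (20.2%) was 14.6% within 50 bp and 28.1% anywhere in the region, and 19.1 to 22.3% with 1 replicate. The median signal was 9.04 to 15.9 in the lists of single replicates and 22.8 in the pooled list, on scales that differ between lists. Allowing 1 mismatch in box C, chosen after seeing the data, gave 26 box C/D members in place of 11. Of the snoRNP genes 3 to 4 had a thresholded summit from 1 replicate, also an addition. No paired analysis was possible because both replicates make up 1 group.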
